A study of Mus musculus with 6 samples.

Results

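The genes described here carry the gonadotropin signal from the cell surface to cyclic AMP in mouse cumulus cells: the receptors of follicle-stimulating hormone (FSH) and luteinizing hormone (LH), Fshr and Lhcgr, the stimulatory G protein alpha subunit, Gnas, and the adenylyl cyclases Adcy2, Adcy3, Adcy6, Adcy7, Adcy8 and Adcy9. All probe sets that the array's annotation gives to 1 of these symbols alone were taken. Of the 9 genes 8 were measured, by 20 probe sets, out of 18194 genes and 34958 probe sets with a single symbol. Lhcgr was not analysed here.

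Cumulus cells surround the oocyte in the antral follicle and loosen from it at ovulation. The hCG-6h group came from wild-type female mice that received 5 IU of human chorionic gonadotropin (hCG), the ovulatory hormone, for 6 h, after 46 h under 5 IU of equine chorionic gonadotropin (eCG), which drives follicle growth. The hCG-0h group came from wild-type females of the same eCG treatment without hCG. Each group held 3 samples on 1 array each, and each sample pooled the cumulus cells of 50 cumulus-oocyte complexes from mice that were 21 days old at the start of eCG and 23 days old at collection. All samples were handled in medium with 5 µM milrinone, an inhibitor of the cyclic AMP phosphodiesterase PDE3. For hCG-6h samples 2 and 3 the description reads 7 h and 8 h where the title reads 6 h, and the title was followed. Whether the samples came from separate animals is not in the labels, so the tests measure the spread between these samples, which may be technical. A longer time in the animal cannot be told apart from hCG.

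FSH binds FSHR on granulosa and cumulus cells, and LH or hCG binds the LH receptor, which is abundant on mural granulosa and theca cells and sparse on cumulus cells. Both receptors act through the stimulatory G protein, whose alpha subunit switches on adenylyl cyclases, the membrane enzymes that make cyclic AMP, and cyclic AMP then activates protein kinase A. The cyclases share this activation and differ in their other controls. Calcium with calmodulin stimulates ADCY8, calcium and inhibitory G proteins restrain ADCY6, G protein beta-gamma subunits add to the activity of ADCY2 and ADCY7, and ADCY9 responds little to the plant compound forskolin, which activates the other membrane forms.

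Promoter sequences are shown for Fshr and Adcy9, the pair of genes that fell together. RefSeq promoters on build GRCm38.p6 were matched for 7 of the 9 genes, at 13 start sites. The 250 bases before the start are printed 5′ to 3′, and capitals mark the E-box CACGTG in Fshr and the short cyclic AMP response element (CRE) core TGACG in Adcy9. The Fshr stretch lies at chr17:89200676-89200925 on the minus strand and the Adcy9 stretch at chr16:4420499-4420748 on the minus strand.
Fshr: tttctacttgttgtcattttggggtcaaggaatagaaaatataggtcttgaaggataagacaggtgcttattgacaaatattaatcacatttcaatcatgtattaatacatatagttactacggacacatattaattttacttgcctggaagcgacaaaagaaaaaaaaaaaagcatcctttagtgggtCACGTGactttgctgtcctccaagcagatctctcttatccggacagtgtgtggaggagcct
Adcy9: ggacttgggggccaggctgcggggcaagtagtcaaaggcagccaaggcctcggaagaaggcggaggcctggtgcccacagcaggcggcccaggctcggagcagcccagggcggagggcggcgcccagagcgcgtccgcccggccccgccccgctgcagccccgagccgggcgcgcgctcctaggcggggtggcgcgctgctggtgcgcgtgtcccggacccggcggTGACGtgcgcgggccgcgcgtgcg
Both strands were searched. The E-box, the sequence to which the USF factors are known to bind in rodent Fshr promoters, begins 61 bases before the Fshr start and was found at 1 of the 13 start sites, against 6.02% of 32851 promoters of the same length. The core begins 24 bases before the Adcy9 start and is present in 17.8% of all promoters. It was found at 5 of the 13 start sites, which belong to 3 genes (Gnas, Adcy7 and Adcy9), and a pair of overlapping Gnas stretches holds the same match. The full CRE TGACGTCA, which contains the core, and the steroidogenic factor 1 sequence CAAGGTCA were found at 0 of the 13 start sites, against 1.55% and 1.33% of all promoters. The GC box GGGCGG was found at 7 of the 13 start sites, against 32.7% of all promoters. It has 4 matches in the Adcy9 stretch, not in capitals, and 0 in that of Fshr. These are matches of letters in a window, not measured binding.

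The values are log2 signals from robust multi-array averaging (RMA), which subtracts background, sets the arrays to a common distribution and summarises the probes of a set. Array medians lay between 6.43 and 6.46, and single values between 2.43 and 14.6. Samples of a group correlated at 0.986 to 0.9881 over genes and samples of different groups at 0.9418 to 0.9427 (Pearson's r; genes share their samples and are no replicates). Calls of presence or absence were not used here. The 6 measured Y-linked genes, which female mice lack, had group means between 3.58 and 8.48, the highest being that of Sry, so a level in this range does not by itself show that a transcript was present. Both group means of Adcy2, Adcy6, Adcy7 and Adcy8 and the hCG-6h means of Fshr and Adcy9 lie in it. Folds are ratios of signals, and where a group's level lies in this range the ratio need not be that of the transcripts. The brightness of different probe sets was not compared as an amount of RNA. Of 11 cumulus and granulosa cell markers 0 were among the dimmest genes by mean level over all arrays. They ran from Inha, the inhibin alpha subunit, at 13.39 ± 0.03 at hCG-6h and 13.46 ± 0.05 at hCG-0h, to Slc38a3, an amino acid transporter, at 5.59 ± 0.10 at hCG-6h and 9.29 ± 0.26 at hCG-0h (SD, n = 3 each).

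At hCG-6h the signal of Fshr was much lower than at hCG-0h, that of Adcy9 was lower, and those of Adcy3 and Adcy6 were higher. The Adcy9 call was the least stable of these and ended when any 1 of 5 samples was left out. With 1 probe set a gene, the brightest, 2 of the 8 measured genes rose, 2 fell and 4 did not pass (limma, two-sided, Benjamini-Hochberg adjusted p under 0.05 over all genes). Among all 18194 genes 21.3% passed, 10.8% higher and 10.5% lower. The median log2 change of the 8 genes was -0.14, against 0.01 over all genes. The 3 values of one group lay apart from the 3 of the other in 6 of the 8 genes, against 37.9% of all genes. Of these 6, 3 were higher and 3 lower at hCG-6h, against 19.3% and 18.7% of all genes. Of the 20 probe sets, which share targets within a gene, 6 rose, 4 fell and 10 did not pass, against 18.7% of all probe sets passing, 9.28% higher and 9.43% lower. The groups lay apart in 13 of the 20, 7 higher and 6 lower, against 36.3% of all probe sets, 18.1% higher and 18.2% lower.

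**Figure D1:**
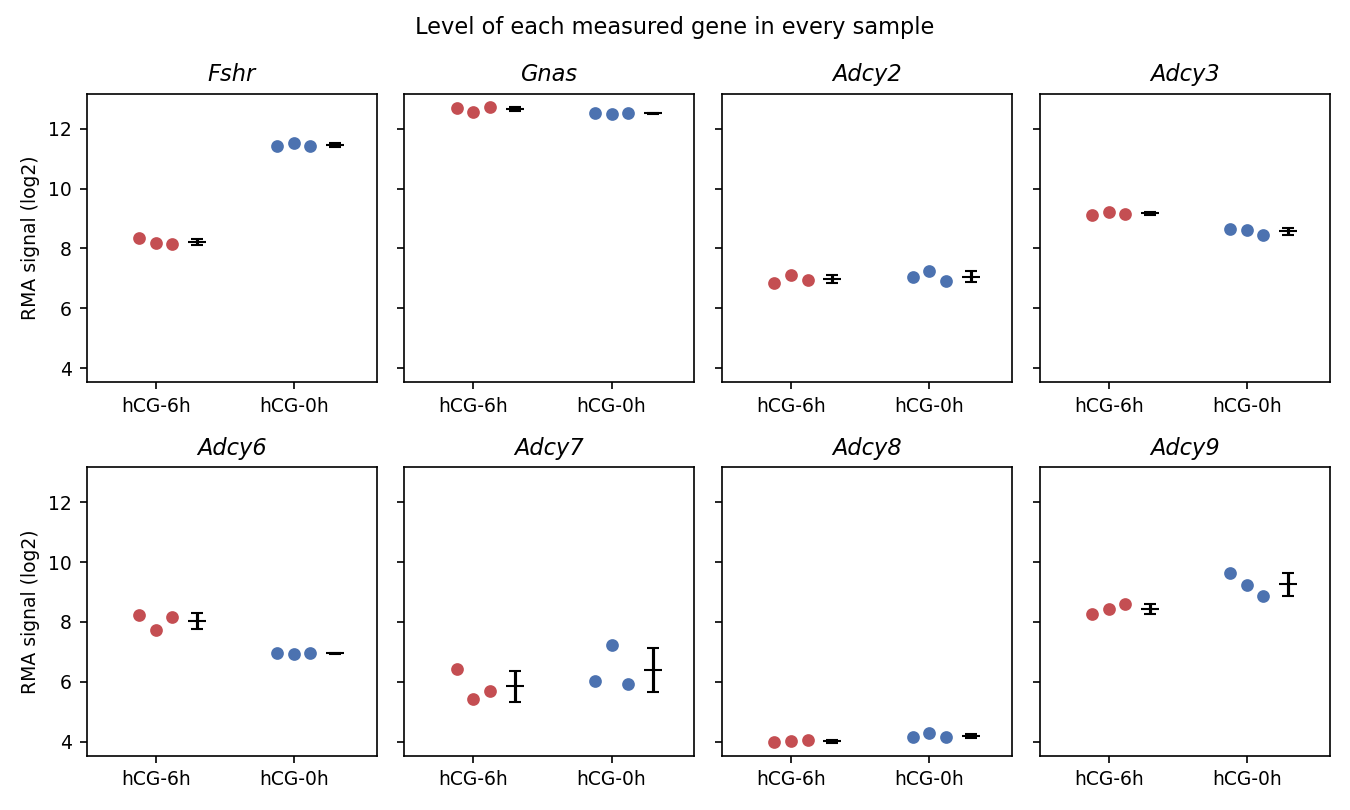
Level of each measured gene in every sample, as log2 RMA signal of its brightest probe set (vertical axis), with hCG-6h in red and hCG-0h in blue; bars give mean ± SD of 3 samples. Fshr stands apart most, at 8.15 to 8.34 at hCG-6h and 11.41 to 11.52 at hCG-0h.

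Fshr, the FSH receptor and the only measured receptor of the pair, fell the most. Its probe set (1450810_at) had log2 levels of 8.34, 8.19 and 8.15 in hCG-6h samples 1, 2 and 3, against 11.41, 11.52 and 11.41 in hCG-0h samples 1, 2 and 3. All hCG-6h samples lay far below all hCG-0h samples, with little spread within either group. The log2 change was -3.22 ± 0.10 (SE; 95% interval -3.47 to -2.97), a 9.32-fold lower signal at hCG-6h (limma adjusted p = 1.41e-05). It was the 35th largest fall of the 18194 genes. Its level at hCG-6h was within the range that Y-linked genes reached, though above all of them but Sry. How much transcript was left cannot be read from it. In RNA of whole samples fewer cells of a type and less RNA per cell cannot be told apart. Of 11 cumulus and granulosa cell markers, 8 fell as well (72.7%) and 0 rose (limma), against 10.5% lower and 10.8% higher among all genes. The part of this in the Fshr result was not tested. Averaged over the 11 markers, the log2 level was 9.65 to 9.89 at hCG-6h and 11.14 to 11.19 at hCG-0h.

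Gnas encodes the alpha subunit that couples both gonadotropin receptors to adenylyl cyclase. The locus is imprinted and makes several transcripts from alternative first exons, and an antisense transcript overlaps it. The annotation used here does not say which of them each probe set reads. The brightest probe set (1450186_s_at) stood at 12.68, 12.57 and 12.72 in hCG-6h samples 1, 2 and 3, against 12.53, 12.50 and 12.53 in hCG-0h samples 1, 2 and 3. The hCG-6h values were all slightly higher, but the log2 change of 0.14 ± 0.10 (SE; 95% interval -0.09 to 0.36) did not pass (limma adjusted p = 0.386). This is among the brightest probe sets of the arrays, at the 99.0 percentile of genes by mean level.

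Dimmer Gnas probe sets gave larger differences. The third by brightness (1443375_at) stood at 7.56, 7.92 and 8.14 in the hCG-6h samples and at 6.04, 6.94 and 7.17 in the hCG-0h samples. The groups did not overlap, and the log2 change was 1.16 ± 0.31 (SE, limma adjusted p = 0.0463 over all probe sets). The second (1453413_at) stood at 8.35, 8.70 and 8.86 in the hCG-6h samples and at 8.15, 8.09 and 7.85 in the hCG-0h samples, with a change of 0.61 ± 0.17 (SE, limma adjusted p = 0.0487). The call of 1453413_at also ended with a block for the sample number (limma adjusted p = 0.112). The same held with trend and robust variance, repeated quantile normalisation and median centring (limma adjusted p = 0.0619, 0.06 and 0.0547). Both calls ended when any 1 of 5 of the 6 samples was left out; only without hCG-0h sample 3 for 1443375_at and without hCG-6h sample 1 for 1453413_at did they hold. The remaining probe sets, with means under 6.1, changed by 0.19 and 0.23 and did not pass.

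Among the cyclases, Adcy6 rose the most. ADCY6 is a cyclase that inhibitory G proteins and calcium hold back. Its single probe set (1418128_at) stood at 8.24, 7.73 and 8.15 in hCG-6h samples 1, 2 and 3, against 6.96, 6.92 and 6.96 in hCG-0h samples 1, 2 and 3. Every hCG-6h sample was higher, and the hCG-0h samples were nearly equal. The log2 change was 1.09 ± 0.15 (SE; 95% interval 0.74 to 1.45), a 2.13-fold higher signal (limma adjusted p = 0.00299). With each sample left out in turn the change stayed between 0.99 and 1.25 and passed each time.

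Adcy3 encodes a cyclase best known from olfactory neurons, and also the form that keeps cyclic AMP high in the mouse oocyte. Its brightest probe set (1421959_s_at) stood at 9.13, 9.22 and 9.15 in the hCG-6h samples, against 8.64, 8.63 and 8.44 in the hCG-0h samples. The groups were well apart, with a log2 change of 0.60 ± 0.10 (SE; 95% interval 0.35 to 0.84; limma adjusted p = 0.00796). Of its 4 probe sets 3 rose, by 0.60, 0.77 and 0.76. The fourth (1436929_x_at), a kind whose probes can bind other transcripts, stood at 8.50 ± 0.03 at hCG-6h and 8.38 ± 0.09 at hCG-0h (SD, n = 3 each) and did not pass. Set against hCG-6h sample 1 alone, the sample whose description also gives 6 h, the change was 0.56 and did not pass (limma adjusted p = 0.14), a fit in which the lone sample is assumed to vary like the others. Of the third probe set, the call ended when any 1 of 5 samples was left out.

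Because Adcy3 is active in oocytes and the extraction protocol names cumulus-oocyte complexes, oocyte markers were read beside it. Of 13 oocyte markers 1 rose and 0 fell, 7.7% passing against 21.3% of all genes, and their median log2 change was 0.05. The log2 of their summed signal was 9.91 to 10.07 at hCG-6h and 9.17 to 9.50 at hCG-0h, so it was higher at hCG-6h in all samples. The brightest markers weigh most in this sum. Averaged over the 13 markers, the log2 level was 5.59 to 5.64 at hCG-6h and 5.24 to 5.41 at hCG-0h, also without overlap. Neither measure shows by itself a rise of the whole list. The marker that rose, Ooep, a protein of the oocyte's subcortical complex, stood at 8.47 ± 0.13 at hCG-6h and 6.53 ± 0.33 at hCG-0h (SD, n = 3 each). The defining markers Zp1, Zp2, Zp3 and Bmp15 were dim in both groups, with means of 3.63 to 4.95 at hCG-6h and 3.68 to 4.97 at hCG-0h. Dppa3 stood at 7.63 ± 0.17 at hCG-6h and 6.67 ± 0.68 at hCG-0h without overlap, and Gdf9 at 6.11 ± 0.27 at hCG-6h and 5.65 ± 0.22 at hCG-0h with overlap (SD, n = 3 each), and neither passed (limma adjusted p = 0.0851 and 0.123). The part of oocyte RNA in the Adcy3 change was not tested.

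Adcy9, the forskolin-insensitive cyclase, fell. Its brightest probe set (1434454_at) stood at 8.26, 8.44 and 8.59 in hCG-6h samples 1, 2 and 3, against 9.64, 9.25 and 8.88 in hCG-0h samples 1, 2 and 3. The groups did not overlap, although hCG-0h sample 3 came near the hCG-6h samples. The log2 change was -0.83 ± 0.20 (SE; 95% interval -1.31 to -0.34), a 1.77-fold lower signal (limma adjusted p = 0.0302). This call ended without any 1 of the samples other than hCG-0h sample 3 (limma adjusted p = 0.0559 to 0.0932) and with hCG-6h sample 1 alone (limma adjusted p = 0.154), while the change stayed between -1.01 and -0.63.

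The other Adcy9 probe sets moved the same way. The third by brightness (1418586_at) was the tightest, at 7.56, 7.86 and 7.73 in the hCG-6h samples and 9.0, 8.86 and 8.64 in the hCG-0h samples. Its log2 change was -1.12 ± 0.14 (SE, limma adjusted p = 0.00269 over all probe sets). The second (1449620_s_at) changed by -0.85 (limma adjusted p = 0.0188), a call that ended without hCG-0h sample 1 or 2. In the dimmest (1419811_at) the change was -0.62 and did not pass (limma adjusted p = 0.0641). All 4 probe sets were without overlap between the groups, lower at hCG-6h, and they read the same gene, so they are not independent.

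**Figure D2:**
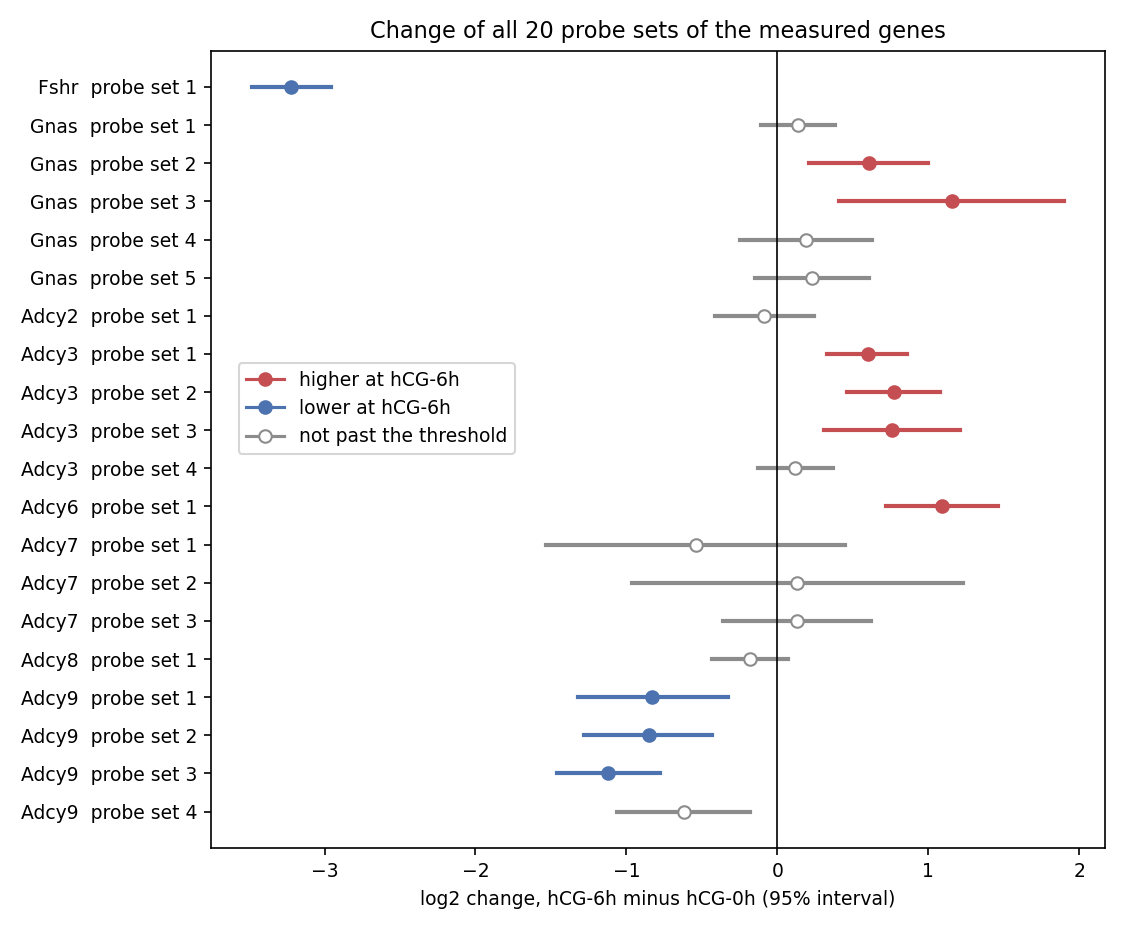
Log2 change (hCG-6h minus hCG-0h) of all 20 probe sets with 95% intervals, numbered within each gene from the brightest; red passed higher, blue passed lower, open grey did not pass. All 4 Adcy9 probe sets lie below 0, between -1.12 and -0.62, and all 4 Adcy3 probe sets lie above it, between 0.12 and 0.77.

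Adcy2, Adcy7 and Adcy8 did not pass. Adcy2, a cyclase that beta-gamma subunits stimulate further, stood at 6.84, 7.12 and 6.95 in the hCG-6h samples and 7.04, 7.23 and 6.90 in the hCG-0h samples, which overlapped (95% interval of the change -0.40 to 0.23). Adcy7, a relative of Adcy2, was the most variable gene of the set. Its brightest probe set stood at 6.43, 5.44 and 5.69 in the hCG-6h samples and 6.03, 7.24 and 5.91 in the hCG-0h samples. The interval of its change, -1.51 to 0.43, leaves room for a fall of more than 2-fold or a small rise. Its 3 probe sets changed by -0.54, 0.13 and 0.13.

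Adcy8, a calcium-stimulated cyclase known mainly from the brain, was dim in all samples. It stood at 3.98, 4.01 and 4.05 in the hCG-6h samples and 4.14, 4.29 and 4.15 in the hCG-0h samples, at the 6.6 percentile of genes by mean level. Its hCG-6h values were all lower, by -0.18 ± 0.10 on the log2 scale (SE, limma adjusted p = 0.26). The Y-linked gene Kdm5d had a similar level, 4.10 ± 0.09 at hCG-6h and 4.08 ± 0.24 at hCG-0h (SD, n = 3 each). The cyclases outside the set, Adcy1, Adcy4, Adcy5 and the bicarbonate-activated Adcy10, were measured too, and of these 4 none passed (limma; 0 also at an unadjusted p under 0.05), with log2 changes of 0.04 to 0.27.

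The mouse's own FSH and LH are made in the pituitary, and no measured subunit of the glycoprotein hormone family passed here. Of 5 measured glycoprotein hormone subunits 0 passed after adjustment by limma, with means of the common alpha subunit Cga at 5.63 ± 0.37 at hCG-6h and 5.34 ± 0.19 at hCG-0h (SD, n = 3 each), and 1, Gpha2, had an unadjusted p under 0.05. Of 6 relatives of the gonadotropin receptors, of which 16.7% passed against 21.3% of all genes, 1 fell and 5 did not pass. This was Lgr6, a receptor for R-spondins, at 5.78, 6.31 and 6.23 in the hCG-6h samples and 7.59, 7.66 and 7.43 in the hCG-0h samples (log2 change -1.45 ± 0.16, SE, limma adjusted p = 0.00127). Both Lgr6 probe sets fell, and the hCG-6h mean of the brightest, 6.11, lay below that of the Y-linked gene Zfy2, 6.33.

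Some other receptors that raise cyclic AMP, and partner proteins of receptors, were higher at hCG-6h. Of 23 measured members of this list, which includes receptor partner proteins, 7 rose, 1 fell and 15 did not pass, a share of 34.8% against 21.3% of all genes, with a median log2 change of 0.13. The partner proteins Ramp1, Ramp2 and Ramp3 are all among the 7 that rose, so this share is not one of receptors alone. Ptger4, a prostaglandin E2 receptor, stood at 8.81, 7.53 and 7.18 in the hCG-6h samples and 5.58, 4.60 and 5.01 in the hCG-0h samples, a 6.85-fold higher signal (limma adjusted p = 0.00584). Its hCG-0h mean of 5.06, like those of Ramp2, Ramp3 and Calcrl, lay below that of the Y-linked gene Zfy2, 6.28. The hCG-0h means of Adcyap1r1, Ptger2 and Ramp1, 6.83, 6.82 and 7.96, lay above that of Zfy2 but below that of Sry, 8.48. Adcyap1r1, the receptor of the peptide PACAP, stood at 9.59, 9.16 and 9.15 in the hCG-6h samples and 6.5, 6.77 and 7.22 in the hCG-0h samples. It was 5.54-fold higher, and all 3 of its probe sets rose (limma adjusted p = 0.000425).

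Ramp1 and Ramp3, which turn the calcitonin receptor-like receptor into receptors for CGRP and adrenomedullin, rose 6.70-fold and 5.58-fold. Their levels were 10.70 ± 0.15 and 8.30 ± 0.23 at hCG-6h and 7.96 ± 0.06 and 5.82 ± 0.55 at hCG-0h (SD, n = 3 each). The other members that rose were Ptger2, Ramp2 and Calcrl, with log2 changes of 1.96, 1.31 and 1.06, with 1 of the 3 Calcrl probe sets passing, and the one that fell was Glp1r, at -0.63 (these 4 names were chosen after seeing their values). Leaving out 1 sample at a time gave 5 to 7 members that rose, and 0 that fell except 1 without hCG-6h sample 2. Calcrl and Ramp2 are also active in endothelial cells. Of 7 endothelial markers 0 passed after adjustment by limma and 2 had an unadjusted p under 0.05, Cdh5 at 8.09 ± 0.47 at hCG-6h and 6.46 ± 0.94 at hCG-0h and Kdr at 5.69 ± 0.51 at hCG-6h and 5.02 ± 0.17 at hCG-0h (SD, n = 3 each), both without overlap. The median log2 change of the 7 was 0.13. The log2 of their summed signal, in which the brightest weigh most, was 8.67 to 9.26 at hCG-6h and 7.87 to 8.68 at hCG-0h. The part of endothelial cells in these results was not tested.

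**Figure D3:**
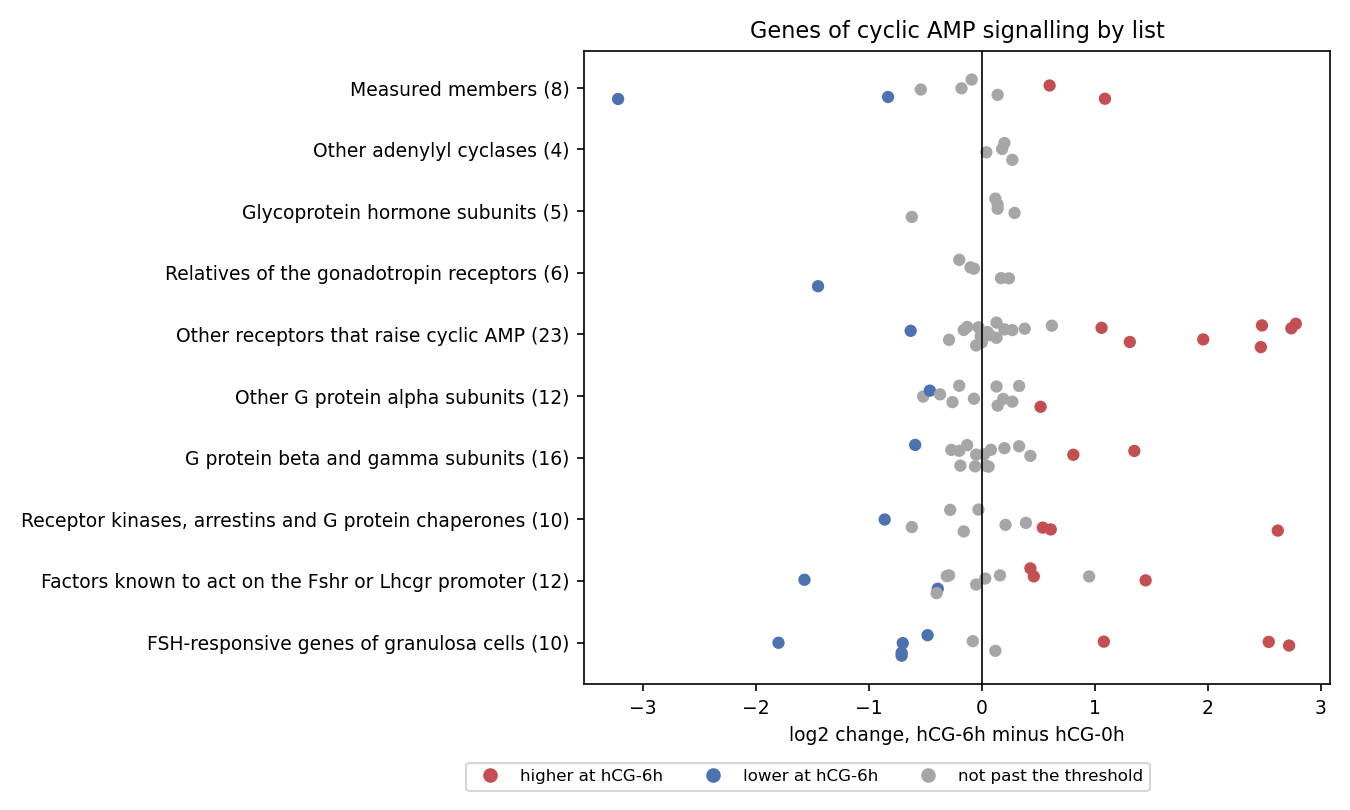
Log2 change (hCG-6h minus hCG-0h) of every measured gene in the 8 measured members and the 9 lists of neighbouring genes, 1 point a gene, with the number of measured genes in brackets and random vertical scatter; red passed higher, blue passed lower, grey did not pass. Most points of the G protein lists lie near 0, and 7 of 23 other receptors and partners lie to the right in red.

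Other G protein genes passed at shares near that of all genes, 16.7% of the alpha subunits and 18.8% of the beta and gamma subunits against 21.3%. Of 12 other alpha subunits 1 rose, 1 fell and 10 did not pass. Gnai1, an inhibitory alpha subunit, stood at 9.34 ± 0.18 at hCG-6h and 8.82 ± 0.11 at hCG-0h, and Gnaq, which activates phospholipase C, at 9.57 ± 0.05 and 10.03 ± 0.15 in the same order (SD, n = 3 each; limma adjusted p = 0.0302 and 0.0291). Each of these calls ended without any 1 of 5 samples, and 1 of the 7 Gnaq probe sets passed when all probe sets were tested. Of 16 beta and gamma subunits 2 rose, 1 fell and 13 did not pass. Gnb4, a beta subunit, rose 2.55-fold, with samples at 9.82 to 10.01 at hCG-6h against 8.31 to 8.84 at hCG-0h (limma adjusted p = 0.0014), and the gamma subunit Gng12 rose 1.75-fold. The fall of Gng13, by 0.59 on the log2 scale, was lost without any 1 of 5 samples. When all probe sets were tested, 1 of the 2 of Gng12 and 0 of the 2 of Gng13 passed.

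A further list held receptor kinases, arrestins and G protein chaperones, and beside them Appl1 and Mvk (mevalonate kinase). Of its 10 measured genes 3 rose, 1 fell and 6 did not pass. The share passing was 40.0%, against 21.3% of all genes. Grk5, a kinase that phosphorylates active G protein-coupled receptors, stood at 8.08, 8.59 and 8.59 in the hCG-6h samples and 5.92, 6.04 and 5.44 in the hCG-0h samples. That is a 6.15-fold higher signal (log2 change 2.62 ± 0.21, SE, limma adjusted p = 0.000315), with both probe sets rising, and its hCG-0h mean of 5.80 also lay below that of Zfy2. Grk6 and Ric8a, a chaperone of alpha subunits, rose 1.46-fold and 1.53-fold. These calls ended when any 1 of 5 samples and any 1 of 4 samples was left out. When all probe sets were tested, 1 of the 3 of Grk6 and 2 of the 4 of Ric8a passed. Appl1, an adaptor known to bind FSHR in human cells, fell, at 9.14, 9.37 and 9.77 in the hCG-6h samples and 10.36, 10.33 and 10.16 in the hCG-0h samples (limma adjusted p = 0.0147; 0.0503 without hCG-0h sample 1).

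Factors known to act on the Fshr or Lhcgr promoter were mixed, with 3 of 12 rising, 2 falling and 7 not passing. The share passing was 41.7%, against 21.3% of all genes. Nr5a2, an orphan nuclear receptor of granulosa cells, stood at 10.72, 10.63 and 10.48 in the hCG-6h samples and 12.25, 12.15 and 12.13 in the hCG-0h samples. It was 2.96-fold lower (limma adjusted p = 0.00017), and all 4 of its probe sets fell. Nr2f6, a nuclear receptor known to repress the LH receptor promoter in human and rat cells, stood at 10.64, 10.47 and 10.57 in the hCG-6h samples and 8.98, 9.21 and 9.15 in the hCG-0h samples, 2.73-fold higher (limma adjusted p = 0.000238).

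Usf1, a factor known to bind E-boxes, stood at 8.64 ± 0.09 at hCG-6h and 8.21 ± 0.16 at hCG-0h (SD, n = 3 each; limma adjusted p = 0.0478). Its call ended without any 1 of the 6 samples. When all probe sets were tested, 0 of its 3 passed, with log2 changes of -0.06 to 0.92. The rise of Nr2f2 by 0.46 on the log2 scale ended without hCG-0h sample 2 or hCG-6h sample 3, and 1 of its 6 probe sets passed. The second factor that fell was Nr5a1, steroidogenic factor 1, by -0.39 on the log2 scale (limma adjusted p = 0.031; chosen after seeing its values).

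Genes known to respond to FSH in granulosa cells moved in both directions. Among 10 measured members, each read by its brightest probe set, 5 were lower, 3 were higher (Cyp11a1, Tnc and Sgk1) and 2 missed the threshold. Their median log2 change was -0.28. The share passing, Tnc included, was 80.0%, against 21.3% of all genes, of which 10.5% were lower and 10.8% higher. Inhbb, the inhibin beta B subunit, was 3.47-fold lower, at 11.65 ± 0.05 at hCG-6h and 13.45 ± 0.09 at hCG-0h (SD, n = 3 each). Cyp11a1, the cholesterol side-chain cleavage enzyme, was 6.59-fold higher, though 1 of its 3 probe sets passed. Its log2 change was 0.78 with its probe sets averaged and 2.72 with the brightest. The hCG-0h mean of the brightest, 5.82, lay below that of the Y-linked gene Zfy2, 6.28. Sgk1, a kinase induced by hormones, was 2.12-fold higher. The probe sets of Tnc, tenascin C, went opposite ways, with log2 changes of 2.54 and -2.47 that both passed. No direction is given for it, and its place among the 3 higher genes rests on its brightest probe set. With the probe sets of each gene averaged, 2 members were higher. With hCG-6h sample 1 alone, 1 member fell.

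The 3 genes whose 6 values, each centred on the gene's own mean, lay nearest to those of Fshr were Alms1, Fhl1 and Large2. Their root mean square differences from Fshr over the 6 samples were 0.168, 0.185 and 0.194 on the log2 scale. Alms1, a protein of centrosomes and cilia, changed by -2.98, Fhl1, a LIM domain protein, by -3.19, and Large2, a glycosyltransferase of dystroglycan, by -2.86. The 6 samples form a pair of groups, so this likeness rests mainly on the size of the change. The second probe set of Fhl1 changed by -0.33 and did not pass.

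**Figure D4:**
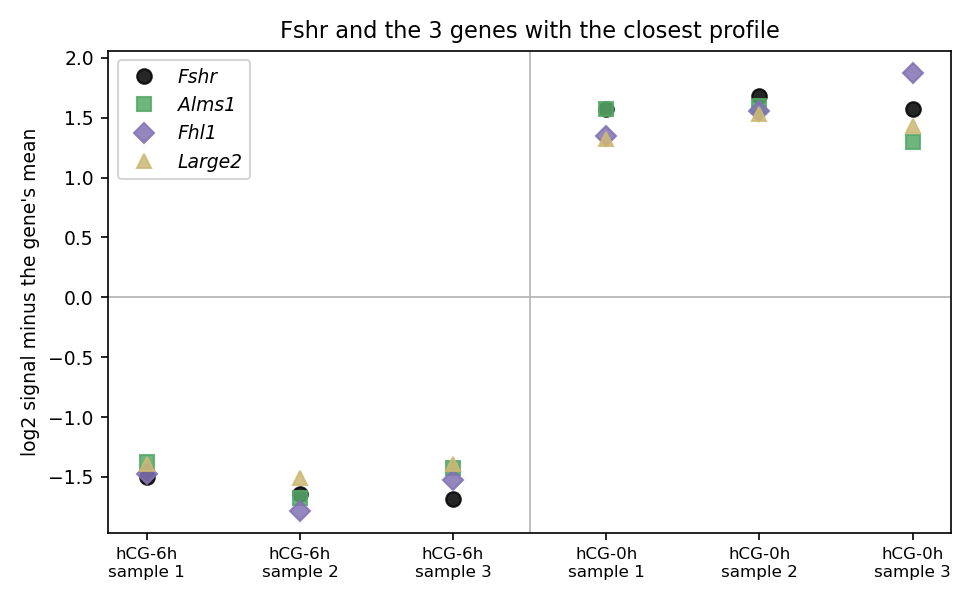
Log2 signal minus the gene's own mean (vertical axis) of Fshr, Alms1, Fhl1 and Large2 in each sample, hCG-6h left and hCG-0h right. The 4 genes lie close together in every sample, with changes of -3.22, -2.98, -3.19 and -2.86.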

How the data were processed

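The deposited log2 values of 45101 probe sets in 6 arrays were used as given. Per the submitters' processing notes they come from GCOS, Affymetrix Expression Console 1.1 and RMA, and for a genome build nothing was given in those notes. Per the labels' protocols, RNA was amplified to cDNA and labelled with biotin. RMA draws low signals together, so changes of dim genes are understated, and the number of arrays limits the precision.

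Probe sets were named from the platform annotation: 34958 had 1 symbol, 932 several and 9211 were not listed. Entrez identifiers of 34754 matched the RefSeq table. For each of 18194 genes the brightest probe set by mean over the arrays stood for the gene. A few list members were not analysed here.

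The 3 hCG-6h samples were compared with the 3 hCG-0h samples by limma 3.58.1 in R 4.3.3 (lmFit, eBayes, group as the only term, no filter), over genes and again over all single-symbol probe sets, with an adjusted p threshold of 0.05. Intervals are 95% from the moderated fit. The code was tested on simulated data. The genes named are all members, up to 4 passing genes with the largest changes from each of 9 lists, and the 3 genes nearest to Fshr. Members and lists were chosen with earlier results of these data known. Lists of 6 cell types and of Y-linked genes were read as markers. The alternatives were a block for the sample number, trend and robust variance, repeated quantile normalisation, median centring, no dimmest genes (1 in 3), array weights, averaged probe sets of each gene, hCG-6h sample 1 alone and each sample left out.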

Additional observations from a re-analysis of the deposited data

How the results depend on the processing

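Fshr and Adcy6 kept their direction and their call under all 14 alternatives run on each, with log2 changes of -3.28 to -3.11 and of 0.99 to 1.29. The sample numbers did not pair the samples: deviations from the group means correlated at 0.012, -0.016 and 0.029 between same-numbered samples, and not every sample correlated best with its own number. With the number as a replicate block 1670 genes rose and 1594 fell, and 1 member fell, since Adcy9 (-0.83) had an adjusted p of 0.0763. Set against hCG-6h sample 1 alone, a fit with fewer samples, 809 genes rose and 767 fell, 1 member rose and 1 fell, 1 member probe set rose, and Adcy3 (0.56) and Adcy9 (-1.0) were not called. Adcy7 turned to 0.04 there, uncalled in both fits, as were its dimmest probe set, at -0.03, and its brightest, at 0.04. The second Adcy7 probe set turned to 0.00 with array weights and to -0.16 without hCG-0h sample 1, and without hCG-6h sample 3 those probe sets stood at -0.27 and -0.10, and over single samples left out they ranged up to 0.50 and 0.28. With the mean of its probe sets, Gnas rose by 0.46 (adjusted p = 0.0153), which brings in the dimmer sets described above, so 3 members rose.

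With each sample left out, 1 to 2 members fell and 3 to 5 member probe sets rose and 2 to 4 fell, and Adcy9 changed by -1.01 to -0.63. Among the lists, and over all the alternatives, the counts that moved by over 1.5 times were those of other alpha subunits (0 to 2 rising and 0 to 1 falling, against 1 and 1), beta and gamma subunits (1 to 2 and 0 to 1, against 2 and 1), receptor kinases and chaperones (1 to 3 and 0 to 1, against 3 and 1), promoter factors (1 to 3 and 1 to 2, against 3 and 2), other receptors (0 to 1 falling, against 1), receptor relatives (0 to 1 rising and 1 to 2 falling, against 0 and 1), hormone subunits (0 to 1 falling, against 0) and FSH-responsive genes (1 to 5 falling, against 5). With the mean of probe sets, Tnc changed by 0.03 and Grk6 by 0.20, neither called, and Cyp11a1 by 0.78. Adcy8 lay among the dimmest genes and could not be tested without them. Signal within the range of the Y-linked genes limits what can be read of the levels of Adcy2, Adcy6, Adcy7 and Adcy8 and of Fshr and Adcy9 at hCG-6h. The part of that range above Zfy2 rests on Sry alone, whose probe set is of a kind that can bind other transcripts.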
